A study of Mus musculus with 10 samples.

Results

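The 10 genes described here belong to interleukin-6 (IL-6) family signaling and were followed in a fast-twitch leg muscle, the tibialis anterior, of mice with and without a lung tumor. They were chosen by name: the receptor genes Il6ra, Il6st, Osmr and Lifr, the kinase genes Jak1 and Jak2, the transcription factor gene Stat3, and its target genes Socs3, Cebpd and Pim1. The choice was made with earlier results of these data known. All 10 were found among the 39179 genes listed in each sample, and all 10 were among the 12690 genes with enough reads to test.

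The 4 Control mice were injected with buffer in both flanks and carried no tumor. The 6 LLC mice received Lewis Lung Carcinoma cells, a mouse lung cancer line that causes wasting of body weight and muscle, under the skin of both flanks, and the muscle was taken on day 23 by the labels. The labels give every mouse as C57BL/6J, and the tumor cells as injected at 10 weeks of age, whereas the study's methods name C57BL/10, younger mice and an earlier day. Each library was made from total RNA of 1 muscle. Whole muscle was measured, so fewer cells of a type and less RNA per cell cannot be told apart.

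Cytokines of the IL-6 family act through receptor chains that share gp130, the product of Il6st. IL-6 binds the receptor encoded by Il6ra, oncostatin M binds the chain encoded by Osmr, and leukemia inhibitory factor binds the chain encoded by Lifr. Once ligand is bound, Janus kinases attached to the receptor phosphorylate STAT3, which moves to the nucleus and raises the transcription of genes such as Socs3, whose product then blocks the receptor. In muscle this route is known for roles in regeneration after injury and in wasting during cancer and sepsis. Phosphorylation is not seen in RNA data, so the values below are transcript levels only.

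Levels are given as CPM, a gene's read count scaled to a common library total with TMM factors, with mean ± SD over 4 Control or 6 LLC mice. A gene was taken as changed when it moved at least 1.5-fold with an adjusted p of 0.05 or less. Adjusted p values are Benjamini-Hochberg values over all tested genes, from the quasi-likelihood test of edgeR. Fold changes are on the log2 scale with their standard error (SE) unless called a fold.

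Osmr and Stat3 rose in the tumor-bearing mice, and 0 of the 10 fell by edgeR, by DESeq2 or at an unadjusted p of 0.05 or less. Among all tested genes, 1.65% rose and 3.99% fell by the same rule. A further 5 of the 10, Il6ra, Il6st, Socs3, Cebpd and Pim1, had higher LLC means and an unadjusted p of 0.05 or less, which made 7 of 10 with Osmr and Stat3, against 27.4% of all tested genes. The levels of the remaining 3, Lifr, Jak1 and Jak2, were lower or equal in LLC and did not pass either rule. In 4 of the 10 (Il6ra, Il6st, Osmr and Stat3), every LLC mouse was above every Control mouse, as for 6.4% of all tested genes. The median log2 fold change was 0.75 over the 10 genes and 0.0019 over all tested genes. The 10 genes and the lists used below were chosen with earlier results of these data known. Shares set beside those of all tested genes, here and below, therefore only describe the chosen genes.

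**Figure D1:**
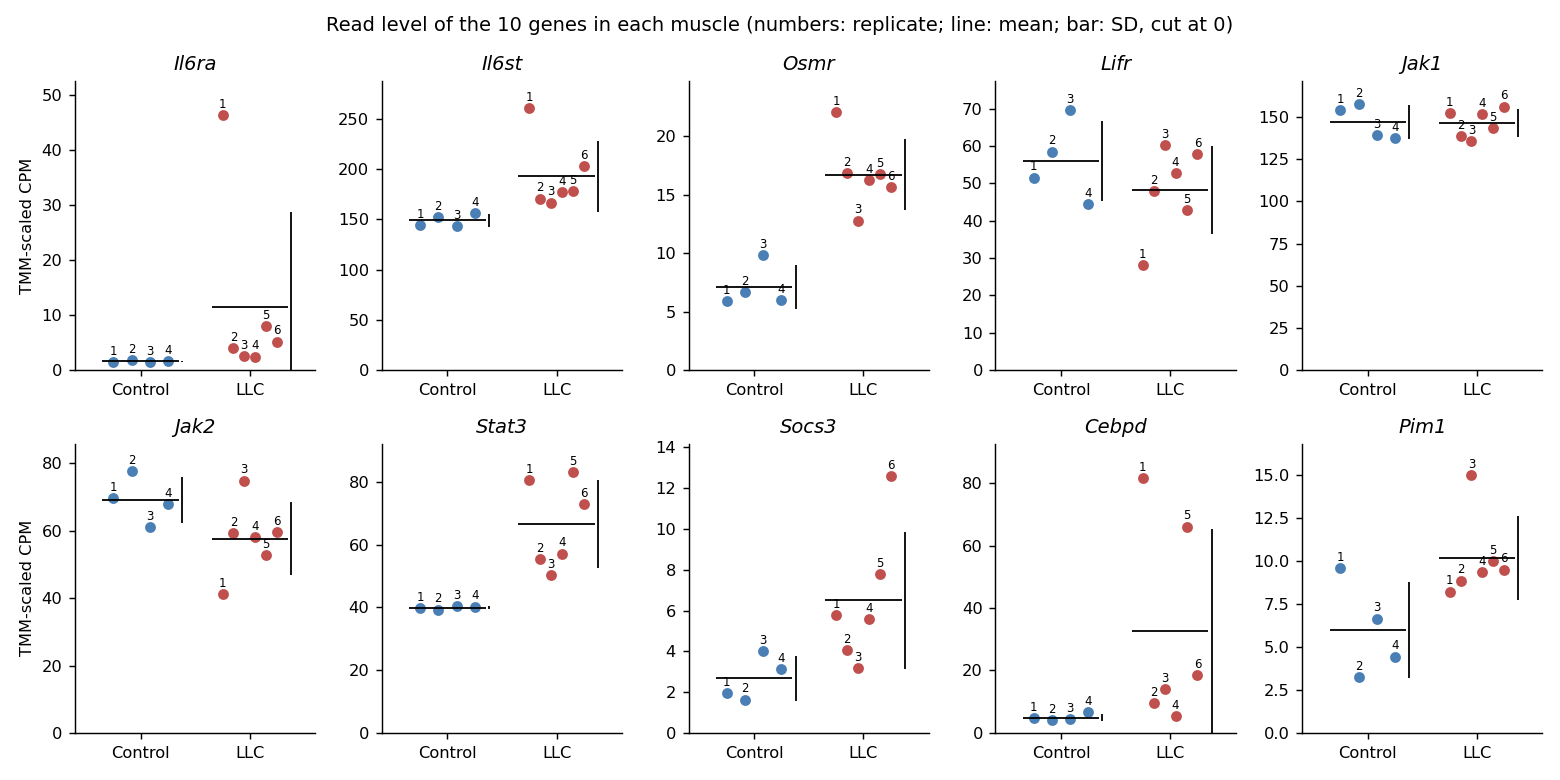
Level of each of the 10 genes (y axis, TMM-scaled CPM from 0) in the 4 Control (blue) and 6 LLC (red) muscles, numbered by replicate, with the group mean as a line and the SD as a bar. Il6ra, Il6st, Osmr and Stat3 separate the groups in every mouse, and Jak1 lies at the same height in both groups. Il6ra reaches 46.3 CPM in LLC 1 alone.

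The libraries held 16693209 to 21303084 counts, at which 3 counts equal 0.148 to 0.174 CPM. Library LLC 1 had the fewest counts, the lowest mitochondrial share (22.0% against 28.4% to 30.7% in Control) and the furthest position on the first principal component of all genes. Fast fiber marker genes summed to 137413 to 146145 CPM in Control and 97400 (LLC 1) to 150930 CPM in LLC. Of these, 0 of 9 passed by edgeR or DESeq2, with 3 at an unadjusted p of 0.05 or less, against 27.4% of all tested genes. Hepatocyte markers reached at most 0.106 CPM in any sample, with Ttr and Serpina1a at 0. Neutrophil markers summed to 1.01 to 3.06 CPM in Control and 35.6 to 76.8 CPM in LLC, with 10 of 13 tested and all 10 of those higher. At these Control levels most of them could reach the test only through the LLC mice. The count of higher genes was therefore largely set by the filter and is not a result by itself. Fibroblast markers fell, 7 of 7, from sums of 257 to 331 CPM to sums of 52.2 to 88.1 CPM. Macrophage markers summed to 26.9 to 41.0 CPM in Control and 22.1 to 40.9 CPM in LLC, with Mrc1 lower. Endothelial markers summed to 287 to 362 and 282 to 340 CPM, with Kdr lower, and satellite cell markers to 22.3 to 27.5 and 20.3 to 33.0 CPM, with Pax7 and Myf5 lower. Lymphocyte markers stayed under 1 CPM in sum, from 0.424 to 0.603 CPM in Control and 0.290 to 0.756 CPM in LLC, and were too low to test.

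Of the 4 receptor genes, Osmr was the one that rose. The oncostatin M receptor chain pairs with gp130, and in many tissues it is made by mesenchymal cells. Osmr (chr15:6813577-6874969, minus strand, GRCm38) stood at 5.88, 6.67, 9.84 and 5.97 CPM in Control 1 to 4. In LLC 1 to 6 it stood at 22.1, 16.8, 12.8, 16.3, 16.8 and 15.7 CPM. The lowest LLC mouse lay above the highest Control mouse, and 4 of the LLC mice lay within a narrow band around 16 CPM. Control averaged 7.09 ± 1.87 CPM and LLC 16.7 ± 3.01 CPM, which gave 2.36-fold or 1.24 ± 0.18 on the log2 scale, with an adjusted p of 0.0017 by edgeR. With each mouse left out in turn, the adjusted p ran from 0.00055 to 0.011 and the log2 fold change from 1.15 to 1.44. Across the same mice the fibroblast marker sum was lower in every LLC mouse and the neutrophil marker sum higher, and their part in the level of Osmr was not tested.

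Il6ra, the gene of the IL-6 binding chain, had the largest fold change of the 10 with all mice included. Il6ra (chr3:89864059-89913196, minus strand) was at 1.54, 1.78, 1.51 and 1.70 CPM in Control 1 to 4. In LLC 1 to 6 it was at 46.3, 4.01, 2.61, 2.47, 8.08 and 5.20 CPM. The Control mice were nearly equal, every LLC mouse was above them, and LLC 1 lay 28.4 times above the Control mean, whereas the other 5 LLC mice did not pass 8.08 CPM. The coefficient of variation was 7.81% in Control and 150% in LLC. The log2 fold change was 2.81 ± 0.90, and the adjusted p of 0.084 missed the threshold. Without LLC 1 the log2 fold change was 1.47, a 2.76-fold rise, with an adjusted p of 0.015, so the gene passed the test only when its highest mouse was left out, among the 10 mice left out in turn. In that fit Cebpd had the larger log2 fold change, 2.23, and limma voom also put Cebpd (1.32) above Il6ra (1.16). DESeq2 on all 10 mice gave an adjusted p of 0.015. Neutrophil markers summed to 42.2 CPM in LLC 1, where Il6ra was highest, to 76.6 CPM in LLC 5, where it was second highest, and to 76.8 CPM in LLC 4, where it was lowest. The part of those cells in the level of Il6ra was not tested. Of the 8642 exonic bases of Il6ra, 242 lie opposite the gene Gm42809 on the other strand.

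Il6st, which encodes the shared gp130 chain, was a more abundant transcript and moved less. Il6st (chr13:112464070-112510086, plus strand) ran from 143 to 157 CPM in Control and from 167 to 260 CPM in LLC, with a median of 178 CPM and LLC 1 again highest. No LLC mouse overlapped the Control range. The means were 149 ± 6.35 and 193 ± 35.5 CPM, and the log2 fold change of 0.37 ± 0.13 had an adjusted p of 0.10. Without LLC 1 it was 0.27 with an adjusted p of 0.029, below the 1.5-fold minimum.

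Lifr, the receptor chain for leukemia inhibitory factor that neighbors Osmr on the same chromosome, did not pass the threshold. Lifr (chr15:7090614-7197489, plus strand) ran from 44.5 to 69.6 CPM in Control and from 28.2 to 60.2 CPM in LLC, with a median of 50.4 CPM. The groups overlapped except for LLC 1 and LLC 5, which were below all Control mice. The log2 fold change was -0.21 ± 0.20 with an adjusted p of 0.48, and its 95% interval of 0.641 to 1.16 as a fold leaves room for a modest fall or no change.

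Ratios between receptor chains are given here as values with no test. Levels of different genes were compared per kilobase of exon (CPM per kb). In Control, Il6st exceeded Il6ra 71.4 ± 3.18-fold per length, and each Control mouse lay between 66.8 and 73.8. In LLC the ratio was 31.8 ± 19.3, from 4.37 in LLC 1 to 55.8 in LLC 4, below the Control range in every mouse. Lifr exceeded Osmr 9.01 ± 0.996-fold per length in Control and 3.43 ± 1.29-fold in LLC, again without overlap. Il6st exceeded Osmr 24.1 ± 5.64-fold in Control and 12.6 ± 1.34-fold in LLC, without overlap as well. The ratio of Il6st to Lifr did overlap, at 2.00 to 3.42 in Control and 2.69 to 8.97 in LLC. Il6ra stayed the scarcest of the receptor transcripts in the LLC mean as well, at 1.32 ± 1.99 CPM per kb beside 1.38 ± 0.248 for Osmr, a difference far within the spread.

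**Figure D2:**
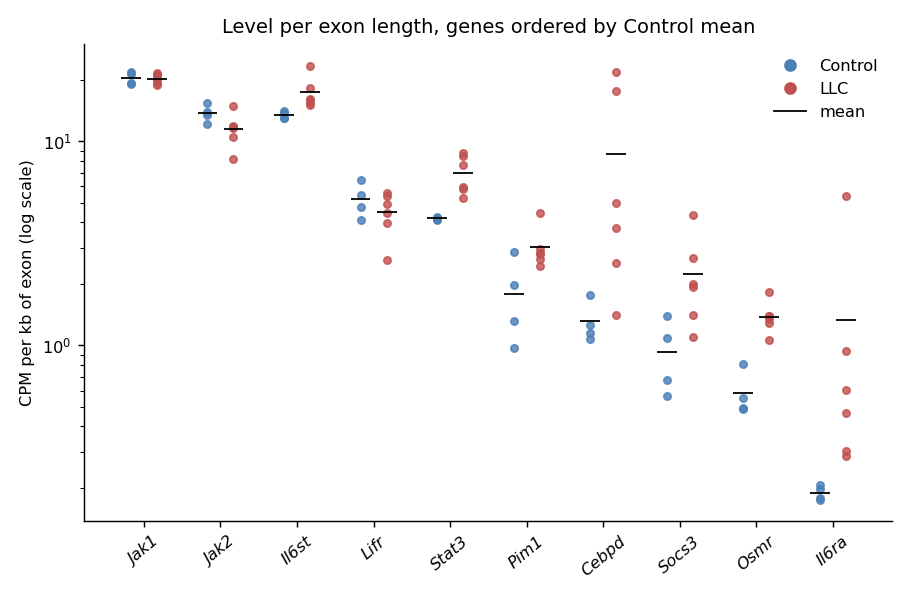
Level per kilobase of exon (y axis, log scale) of the 10 genes, ordered along the x axis by their Control mean, with 1 point per Control (blue) and LLC (red) mouse and the mean as a line. Jak1 leads at 20.4 CPM per kb in Control and Il6ra is last at 0.189 CPM per kb, with 1 LLC mouse far above the rest for Il6ra.

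The order of levels in Control was led by Jak1 at 20.4 ± 1.41 CPM per kb, followed by Jak2 at 13.7 ± 1.36 and Il6st at 13.4 ± 0.572. Jak2 and Il6st overlapped. Lifr at 5.20 ± 0.993 and Stat3 at 4.19 ± 0.0497 CPM per kb overlapped as well. Pim1 at 1.78 ± 0.828, Cebpd at 1.31 ± 0.307 and Socs3 at 0.926 ± 0.377 CPM per kb each overlapped the next gene in the order. After Socs3 that gene was Osmr, at 0.585 ± 0.154 CPM per kb. Il6ra came last, clear of Osmr, at 0.189 ± 0.0147. In LLC, Cebpd reached a mean of 8.68 ± 8.74 CPM per kb, with a spread as large as the mean.

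The promoters of the 10 genes were searched on both strands for short sequences bound by transcription factors, not all of them of this pathway. The search ran from 250 bases before to 50 bases after the start of each RefSeq transcript (build GRCm38.p6). The search covered 9 of the 10 genes and 11 promoters. Cebpd had no entry among the promoters used, so its promoter was not searched. A STAT site (TTCNNNGAA) was present in 8.30% of all 32851 promoters, a C/EBP site (TTGCNNAA) in 10.8%, an AP-1 site (TGANTCA) in 7.81% and a cyclic AMP response element (TGACGT) in 7.51%. In the 9 genes a STAT match was found in Socs3, a cyclic AMP response element in Jak1 and an AP-1 match in Osmr, the last after the start of its transcript. The windows with the first 2 of these, and the upstream bases of Stat3, are given with those genes. The matches describe letters in the windows searched, and binding was not measured.

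Neither kinase gene passed the threshold. Jak1 and Jak2 encode the kinases bound to gp130 and related receptors. Jak1 (chr4:101152367-101265282, minus strand) ran from 138 to 158 CPM in Control and from 136 to 156 CPM in LLC, so the ranges nearly coincided. Its log2 fold change was -0.01 ± 0.08 with an adjusted p of 0.96, and the 95% interval ran from 0.879-fold to 1.13-fold, which leaves out a 1.5-fold change in either direction. The cyclic AMP response element of Jak1 was a palindrome, from 101 to 94 bases before its start, and is shown in capitals:
Jak1 (chr4:101265307-101265334, minus strand): gagcagcttcTGACGTCAcgggggctgg

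Jak2 (chr19:29251828-29313080, plus strand) ran from 61.0 to 77.7 CPM in Control and from 41.2 to 74.9 CPM in LLC. LLC 3 stayed within the Control range and the other 5 LLC mice lay below it. The log2 fold change was -0.26 ± 0.14 with an adjusted p of 0.25, and the interval ran from 0.674-fold to 1.03-fold.

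Stat3, the transcription factor at the center of the pathway, rose. Stat3 (chr11:100885098-100939540, minus strand) was at 39.8, 39.3, 40.3 and 40.2 CPM in Control 1 to 4. In LLC 1 to 6 it was at 80.5, 55.3, 50.2, 57.1, 83.1 and 72.8 CPM. The Control mice spanned about 1 CPM, every LLC mouse was above them, and LLC 1, LLC 5 and LLC 6 were the highest. Control averaged 39.9 ± 0.473 CPM and LLC 66.5 ± 14.1 CPM, which gave 1.67-fold or 0.74 ± 0.15 on the log2 scale, with an adjusted p of 0.013. The gene passed with any 1 mouse left out, at adjusted p from 0.0067 to 0.046. Of the 9527 exonic bases of Stat3, 72 lie opposite Stat5a, which did not pass (log2 fold change 0.08 ± 0.10). The neutrophil marker sum was also above the Control range in all LLC mice, at 42.2, 50.8, 35.6, 76.8, 76.6 and 36.8 CPM in LLC 1 to 6. Its order among the LLC mice differed from that of Stat3, with LLC 4 highest. The part of those cells in the level of Stat3 was not tested.

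The 250 bases before the start of Stat3 are shown because it was the transcription factor gene that rose. They held none of the 4 motifs, but a CCAAT box (capitals ATTGG, its reverse complement, found as CCAAT in 37.4% of all promoters) and a GC box (capitals GGGCGG, in 35.7%):
Stat3 (chr11:100939541-100939790, minus strand): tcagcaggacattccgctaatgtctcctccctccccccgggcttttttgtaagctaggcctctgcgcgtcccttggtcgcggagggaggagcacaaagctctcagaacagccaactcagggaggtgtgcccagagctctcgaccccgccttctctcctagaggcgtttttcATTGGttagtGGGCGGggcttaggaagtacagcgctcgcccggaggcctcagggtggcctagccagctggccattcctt

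**Figure D3:**
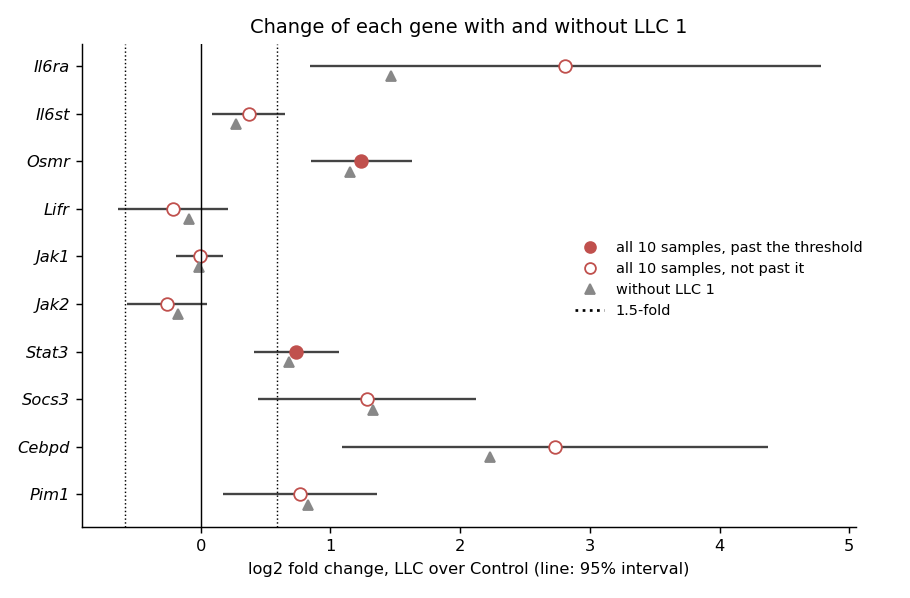
Log2 fold change of LLC over Control (x axis) for each gene, with the 95% interval as a line, filled circles for genes past the threshold, triangles for the fit without LLC 1 and dotted lines at 1.5-fold. Osmr and Stat3 are the filled genes, and Il6ra moves from 2.81 to 1.47 without LLC 1.

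The 3 target genes had higher LLC means, and 0 of 3 passed the threshold by edgeR. By DESeq2 3 of 3 rose, against 3.06% of all tested genes. At an unadjusted p of 0.05 or less there were 3 of 3, against 27.4% of all tested genes in either direction. Socs3, the feedback inhibitor of gp130 signaling, lies at chr11:117966079-117970047 on the minus strand. It was at 1.96, 1.63, 4.00 and 3.12 CPM in Control 1 to 4 and at 5.76, 4.07, 3.19, 5.59, 7.78 and 12.6 CPM in LLC 1 to 6. LLC 3 fell within the Control range, LLC 2 lay just above it, and LLC 6 was highest. The log2 fold change was 1.28 ± 0.39 with an adjusted p of 0.071. It passed without LLC 1 (adjusted p of 0.041) and without LLC 3 (adjusted p of 0.042), and the adjusted p by DESeq2 was 0.010. The STAT match in its promoter, in capitals, began 154 bases before the start and is shown because Socs3 is the gene by which STAT3 feeds back on gp130:
Socs3 (chr11:117969502-117969530, minus strand): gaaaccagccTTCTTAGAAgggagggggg

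Cebpd, a transcription factor gene of the acute-phase response, varied widely among the LLC mice. Cebpd (chr16:15887286-15891031, plus strand) was at 4.71, 4.00, 4.33 and 6.57 CPM in Control 1 to 4. In LLC 1 to 6 it was at 81.7, 9.43, 14.1, 5.29, 66.1 and 18.6 CPM. LLC 1 and LLC 5 stood far above the rest, and LLC 4 lay within the Control range. The log2 fold change was 2.73 ± 0.75, and its adjusted p of 0.051 was just above the threshold. It passed without LLC 1, LLC 2, LLC 3 or LLC 4, at adjusted p of 0.035, 0.036, 0.0495 and 0.023, and the adjusted p by DESeq2 was 0.0056. Of the 3746 exonic bases of Cebpd, 562 lie opposite Spidr, whose counts were 16 to 24 in Control and 16 to 106 in LLC, highest in LLC 1 and LLC 5 as well. The default settings of HTSeq, which the study's methods name, assign reads by strand, and the effect of this overlap on Cebpd was not tested.

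Pim1, a kinase gene that responds to STAT signaling, was at 9.59, 3.26, 6.65 and 4.44 CPM in Control 1 to 4 (chr17:29490753-29496112, plus strand). In LLC 1 to 6 it was at 8.23, 8.87, 15.0, 9.37, 10.0 and 9.50 CPM. Only LLC 3 and LLC 5 were above Control 1, the highest Control mouse. The log2 fold change was 0.76 ± 0.27 with an adjusted p of 0.11, and without Control 1 it was 1.09 with an adjusted p of 0.042. Of its 3362 exonic bases, 488 lie opposite Gm26885, which had 10 to 24 counts in Control and 5 to 24 in LLC. By DESeq2, 6 of the 10 genes rose (Il6ra, Osmr, Stat3, Socs3, Cebpd and Pim1), against 3.06% of all tested genes.

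The 10 genes did not peak in the same mouse. LLC 1 was the highest LLC mouse for Il6ra, Il6st, Osmr and Cebpd, and the lowest for Lifr, Jak2 and Pim1. LLC 3 was highest for Lifr, Jak2 and Pim1, and lowest for Il6st, Osmr, Jak1, Stat3 and Socs3. LLC 5 was highest for Stat3, and LLC 6 for Jak1 and Socs3. The spread on the log2 scale was larger in LLC for 7 of the 10 genes, as it was for 10803 of the 12690 tested genes. For comparison, Fbxo32 and Trim63, which encode muscle ubiquitin ligases of atrophy, summed to 426 to 576 CPM in Control, 6159 CPM in LLC 1, 2953 CPM in LLC 5 and 728 CPM in LLC 4.

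**Figure D4:**
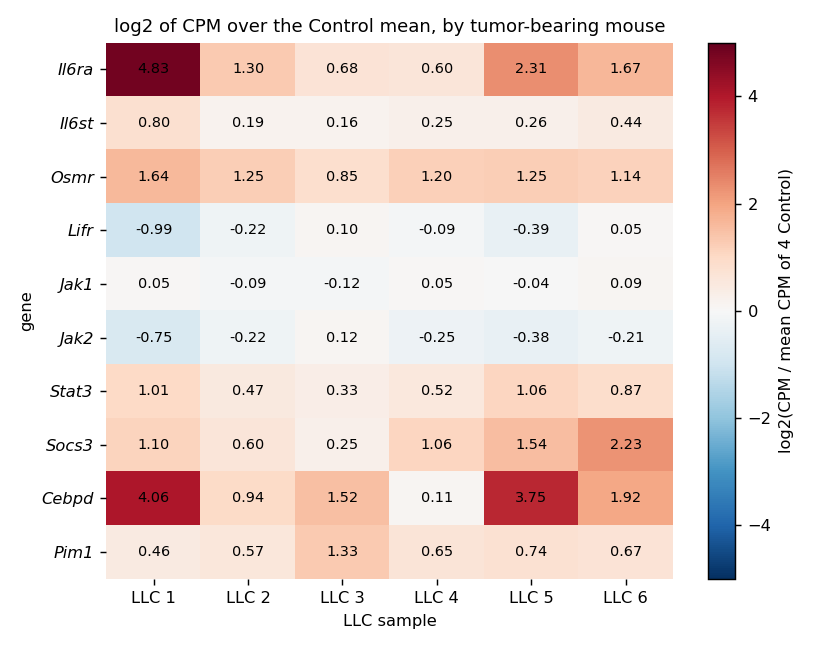
Log2 ratio of each gene's CPM (rows) to its mean in the 4 Control mice, in each LLC mouse (columns), from blue (lower) to red (higher). LLC 1 and LLC 5 hold the highest values of Il6ra (4.83 and 2.31) and Cebpd (4.06 and 3.75), and Osmr is above 0.8 in all 6 mice.

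Genes whose pattern over the 10 mice lay nearest to each key gene were found by the root mean square difference of log2 CPM from the Control mean, among 10384 genes. Nearest to Il6ra were Gadd45a (0.302), Abcc8 (0.351), Cdkn1a (0.406), Runx1 (0.412) and Trim63 (0.426). Each was highest in LLC 1. For example, Gadd45a was at 135 CPM in LLC 1 and 13.2 to 47.7 CPM in the other LLC mice, over a Control mean of 7.72 CPM. Nearest to Stat3 were Rbfox1 (0.112), Ifitm3 (0.126), Akap8l (0.136), Tfap4 (0.139) and 1600002K03Rik (0.145), and all but Akap8l rose. Nearest to Socs3 were Slfn2 (0.338), Sema3f (0.365), Gm14319 (0.400), an unnamed gene (ENSMUSG00000094114, 0.409) and Litaf (0.437), all of which rose. All these genes were picked from the same 10 mice for their likeness to a key gene. Their rise, or their peak in LLC 1, follows from that choice and is no separate result.

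The remaining genes of the pathway, 83 in lists by role, gave 56 tested genes. Of these, 3 described here rose, against 1.65% of all tested genes. The 56 had a median log2 fold change of 0.05, against 0.0019 over all tested genes. Transcripts of the cytokines themselves were scarce. Of 12 ligand genes 8 were too low to test, among them Il6 with 5 counts in all 4 Control libraries and 14 in all 6 LLC libraries, Lif with 2 and 1, Osm with 0 and 3, and Il31 with 0 in both. With so few reads these 8 were given no test. Of those tested, Clcf1, which encodes a cardiotrophin-like cytokine, and Ctf2, a cardiotrophin gene, did not pass, with log2 fold changes of -0.49 and 0.45.

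Among the other receptors and shedding proteases, 0 of 5 tested genes passed by edgeR or DESeq2 or at an unadjusted p of 0.05 or less, and Il27ra, Cntfr and Adam17 had log2 fold changes of 0.38, 0.37 and -0.35. Adam17, whose protease releases receptor chains from the cell surface, ran from 20.6 to 23.7 CPM in Control and from 11.2 to 20.3 CPM in LLC. The highest LLC mouse lay just below the lowest Control mouse. By edgeR its unadjusted p of 0.050025 was barely above 0.05, and the adjusted p was 0.18. The share of all tested genes that lie wholly below Control is not given here. Jak3, a kinase mostly of blood cells, rose from 6.64 ± 0.453 to 10.7 ± 2.12 CPM (log2 fold change 0.69 ± 0.15, adjusted p of 0.019), but its adjusted p ran from 0.051 to 0.075 when any 1 Control mouse was left out. Tyk2 had a log2 fold change of -0.07. Of 5 other STAT genes tested, 0 passed by edgeR or DESeq2. An unadjusted p of 0.05 or less was reached by 27.4% of all tested genes and by 1 of these 5. This was Stat5b at 251 ± 19.6 and 333 ± 34.4 CPM (log2 fold change 0.41 ± 0.10, adjusted p of 0.037) whose change was below the 1.5-fold minimum, while Stat6 was at -0.12. Per kilobase, Stat5b at 45.3 CPM in Control exceeded Stat3 at 4.19 CPM.

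Of the 6 adaptor genes 0 passed by edgeR or DESeq2 or at an unadjusted p of 0.05 or less, with Gab2, Sos1 and Ptpn11 at log2 fold changes of -0.28, -0.26 and -0.16. Of 13 tested inhibitor genes 0 passed by edgeR, 1 by DESeq2 and 3 at an unadjusted p of 0.05 or less. The share of all tested genes at that unadjusted p was 27.4%, so the inhibitors did not stand out by this count. The inhibitor gene with the largest change was Ptpn6, a phosphatase of blood cells, at 0.303 ± 0.0759 and 0.832 ± 0.403 CPM (log2 fold change 1.45 ± 0.41, adjusted p of 0.059). Pias4 and Cish followed at 0.47 and -0.41. Ptpn6, the 1 inhibitor gene that passed by DESeq2, had 4 to 7 counts in Control and 7 to 27 in LLC. It could reach the test only through LLC mice, so its place in these counts was largely set by the filter. That place is not a result by itself. Of 5 tested relatives of Cebpd and Pim1, 0 passed by edgeR. By DESeq2 2 rose (Cebpb and Pim3), against 3.06% of all tested genes, and 2 were at an unadjusted p of 0.05 or less, against 27.4%. Cebpb was at 1.02 ± 0.35 (adjusted p of 0.10), Pim3 at 0.77 ± 0.25 (0.092) and Pim2 at -0.21 on the log2 scale.

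Other genes known as STAT3 targets numbered 12 tested, with a median of 0.53 for the log2 fold change. By edgeR 2 of them rose and 0 fell, against 1.65% and 3.99% of all tested genes. By DESeq2 5 rose (Bcl3, Il4ra, Myc, Junb and Icam1), against 3.06% of all tested genes, and 1, Vegfa, fell. At an unadjusted p of 0.05 or less 7 were higher and 2 (Vegfa and Ccnd1) lower in LLC, together 9 of 12, against 27.4% of all tested genes. Il4ra, the interleukin-4 receptor chain, went from 6.23 ± 0.576 to 19.9 ± 6.32 CPM (1.67 ± 0.22, adjusted p of 0.0010), above all Control mice in every LLC mouse and past the threshold with any 1 mouse left out. Bcl3, a nuclear partner of NF-kB, went from 0.747 ± 0.418 to 2.25 ± 0.655 CPM (1.59 ± 0.33, adjusted p of 0.016), and missed the threshold without Control 1, 2 or 4 at adjusted p from 0.054 to 0.063. Myc, a growth regulator, had a log2 fold change of 1.44 ± 0.50 and an adjusted p of 0.0999. Of 17 acute-phase genes, which the liver makes in inflammation, 4 had enough reads to test. By edgeR 0 of the 4 passed and by DESeq2 1 (Serpina3n). At an unadjusted p of 0.05 or less there were 2 of 4, against 27.4% of all tested genes. Serpina3n was at 2.33 ± 0.81 (adjusted p of 0.10), Lbp at 0.65 and Hp at 0.32 on the log2 scale. Fga, Fgb, Fgg and Apcs were at 0 in every sample.

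**Figure D5:**
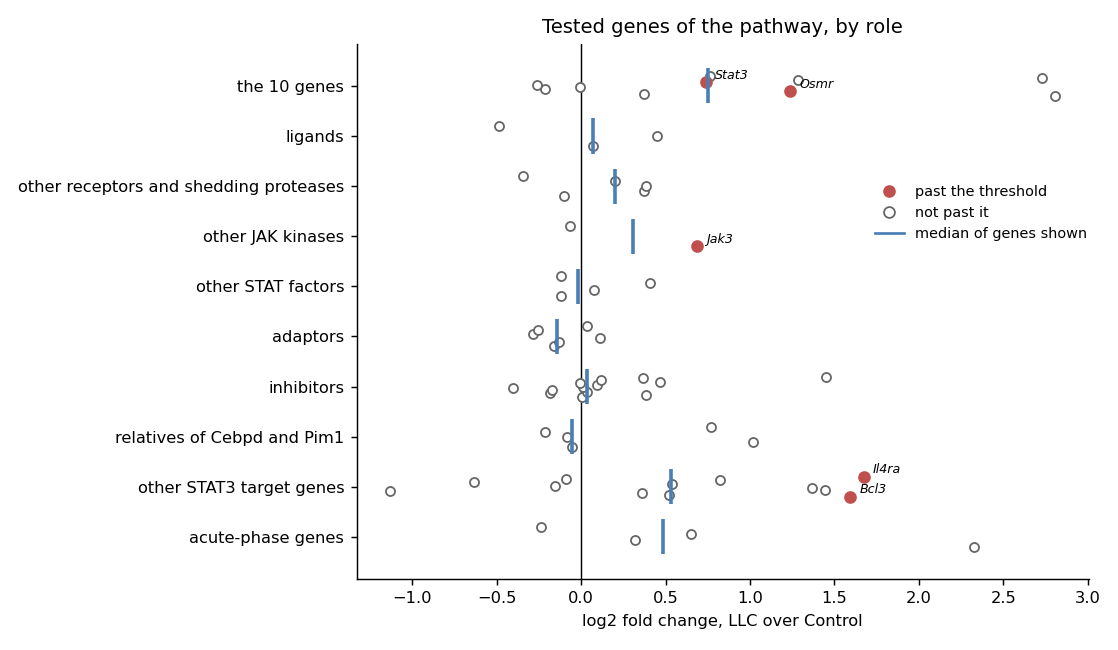
Log2 fold change of LLC over Control (x axis) for tested genes of the pathway, without 2 that are not reported here, grouped by role (y axis), with genes past the threshold filled and named and the median of the genes shown in each group as a bar. The 10 genes have a median of 0.75, the inhibitors a median of 0.03, and Jak3, Il4ra and Bcl3 are the filled genes above 0 outside the 10.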

How the data were processed

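RNA of the tibialis anterior of 4 Control and 6 LLC mice was sequenced from both ends as stranded total RNA. The deposited files hold raw read counts for each gene, 1 library per sample, without normalization: the authors mapped reads to mm10 with TopHat2 and counted them with HTSeq at default settings. The study's methods name RefSeq genes while the deposited counts carry Ensembl identifiers, so the annotation release is not given in the sources used here, which could change counts of genes that overlap others. The default of HTSeq counts by strand. Whether that setting matched the orientation of these stranded libraries was not tested, so exonic overlap with the other strand is given for each of the 10 genes where it exceeds 4 bases. Of 39179 identifiers, 37693 were in GENCODE M21 (GRCm38), which supplied coordinates and exonic lengths.

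Genes were kept by filterByExpr (count minimum 10), scaled by TMM, and tested by the quasi-likelihood method of edgeR 4.0.16 under R 4.3.3, group as the only term, with DESeq2 1.42.0 and limma 3.58.1 among the alternatives. Passing required 1.5-fold and a p, adjusted by Benjamini-Hochberg, of 0.05 or less. The 10 genes, the lists and the markers were chosen with earlier results of these data known. Named genes are the 10, the genes of each list that passed or otherwise its 3 largest changes, and the 5 nearest patterns to Il6ra, Stat3 and Socs3 among genes with a mean log2 CPM of at least 1. The values of 2 genes of the lists are not reported here, though list counts and medians in the text include them. Floors of 3 counts cover counting error only. Nothing in the labels gives the origin of replicates beyond separate samples, so p-values measure the spread between these samples. Same-numbered Control and LLC mice did not deviate together, so the number was not used as a block.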

Additional observations from a re-analysis of the deposited data

Results flagged for a closer look

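Il6ra in LLC 1, at 46.3 CPM, lay far from the other LLC mice, which ran from 2.47 to 8.08 CPM, and the gap was 0.872 of the whole range of the group. Pim1 in LLC 3, at 15.0 CPM, lay apart from the other LLC mice at 8.23 to 10.0 CPM, a gap of 0.736 of the range. These were 2 of 20 groups of samples examined (10 genes in Control and in LLC), and chance flags about 1 in 20 groups.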

How the results depend on the processing

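Across 22 alternatives the 10 genes kept their direction except Jak1, whose log2 fold change of -0.01 turned to 0.0030 with median-of-ratios factors, 0.0037 with no filter on low counts, 0.0030 with DESeq2, 0.015 without Control 1, 0.026 without Control 2, 0.020 without LLC 2 and 0.014 without LLC 3, each far within its error (-0.039 to 0.026 with 1 mouse left out). The count of the 10 genes past the threshold, 2 as reported, was 6 with DESeq2, 4 with limma voom and sample weights, 6 with an unadjusted p and 1 in a test against a 1.5-fold change, and ran from 2 to 5 with 1 mouse left out, reaching 4 without LLC 3 and 5 without LLC 1. The cause was not tested. Of the other pathway genes, 4 passed in all, in either direction, and 12 passed with DESeq2, 2 with at least 10 counts in every sample, 14 with an unadjusted p and 1 in the test against a 1.5-fold change, and from 1 (without Control 1 or Control 2) through 2 (without Control 4) to 7 (without LLC 1) with 1 mouse left out. Of all genes, 715 as reported (209 higher, 506 lower), 1052 passed with DESeq2, 475 with the filter in every sample, 1572 with an unadjusted p, 192 in the test against a 1.5-fold change and 415 to 966 with 1 mouse left out, where leaving out any 1 Control mouse gave 415 to 438. Stat3 missed the fold minimum with limma voom (log2 fold change 0.55). With the replicate number as a block, 112 genes, 0 of the 10 genes and 1 other pathway gene passed, with Osmr at an adjusted p of 0.10 and Stat3 at 0.16. The numbers only name samples here: same-number deviations correlated at -0.081 to 0.13, and 1 of 4 Control and 1 of 4 LLC samples correlated best with its own number. Depth left 8 ligand genes untested.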
